A study of Mus musculus with 3 samples.

Results

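The apelin and adrenomedullin peptide systems were followed in the left ventricle of mice in which the oxygen sensor of blood vessel lining cells had been deleted. The 7 genes were chosen by symbol from 15503 genes in the deposited tables: the ligand genes Apln and Adm, the receptor genes Aplnr and Calcrl, and the receptor partner genes Ramp1, Ramp2 and Ramp3. All 7 had a value in every table, and all 7 passed the filter of a mean of at least 1 FPKM over each pair of libraries. FPKM, a read count scaled to transcript length and to the size of the library, so different genes can be set side by side within a library. The genes were picked with their values in these libraries already known, so the levels and ratios of all 7 are a description and were not tested.

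Whole left ventricle of C57BL6J mice was sequenced as 3 libraries, each a pool of RNA from 3 mice of 1 genotype. The control pool, Egln1_floxed, is labelled as Egln1 floxed mice, although the design text calls these mice wild type. In Egln1_Tie2Cre the Cre enzyme, driven by the Tie2 promoter of endothelial and blood-forming cells, deletes Egln1, the gene of the prolyl hydroxylase PHD2. Egln1_Hif2a_Tie2Cre is labelled with deletion of Hif2a, the protein of the gene Epas1, beside that of Egln1. The labels state neither the age nor the sex of the mice, and no other treatment. Each genotype is a single library, so differences were not replicated, no p-value or standard error can be given, and a ratio between pools includes the differences between the mice that went into them. The sequencing depth is unknown.

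Egln1, read beside the labels, was at 129.5 FPKM in Egln1_floxed, 95.7 in Egln1_Tie2Cre and 129.0 in Egln1_Hif2a_Tie2Cre, and Epas1 was at 77.4, 65.0 and 54.5. The Egln1 level of the last pool did not show the deletion in its label, while its Epas1 level was the lowest of the pools. These are levels of whole ventricle, where cells without Cre also contribute, so they cannot settle whether a label is right. The last pool is therefore written here as the pool labelled Egln1_Hif2a_Tie2Cre, and every direction drawn from it rests on that label. The Egln1_Tie2Cre pool also stood apart in genes that have near-identical copies: of 260 pseudogenes, 192 were at least 2-fold higher than in Egln1_floxed, and of 2207 coding genes with a copy, 328 were at least 2-fold lower. A search of the 7 coding sequences against all annotated transcripts found 0 copies of at least 200 bases at 90% identity for any of them. Copies of the untranslated parts, shorter copies and copies outside the annotation would be missed. Ventricular muscle markers were high in all pools, as with Myl2, a ventricular myosin light chain, at 10992, 19883 and 15211 FPKM and Tnnt2, cardiac troponin T, at 7761, 8947 and 8673. Of 5 atrial markers, 4 were at least 2-fold higher in the Egln1_Tie2Cre pool than in Egln1_floxed, beside 3.93% of all genes tested. The 5 summed to 1995 against 217 FPKM. Of this Nppa, the atrial natriuretic peptide gene, gave 1858 and 160.2 (it has a copy and is uncertain). The other 3 of those 4 were the atrial light chain genes Myl7 (74.0 against 26.3) and Myl4 (43.5 against 20.1) and the secreted factor gene Dkk3 (9.07 against 2.65). Sln, not among those 4, was at 7.85 FPKM in Egln1_floxed, 10.6 in Egln1_Tie2Cre and 16.4 in the pool labelled Egln1_Hif2a_Tie2Cre. The part of atrial tissue in the values below was not tested.

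Apelin is a secreted peptide that acts on a single G protein-coupled receptor, encoded by Aplnr. In the heart the ligand and the receptor are made largely by endothelial and endocardial cells, sprouting capillary tips are a classical site of Apln expression, and the peptide widens vessels and strengthens contraction. Adrenomedullin, encoded by Adm, is a vasodilator peptide needed for the growth of blood and lymphatic vessels. Its receptor is a pair of proteins: Calcrl encodes the membrane-spanning part, and a RAMP protein carries it to the surface and sets which peptide it binds. With RAMP2 or RAMP3 the pair binds adrenomedullin, and with RAMP1 it binds the related calcitonin gene-related peptide. Apln and Adm are both known as genes induced by hypoxia-inducible factors (HIF), the transcription factors that PHD2 marks for destruction.

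To look at the DNA next to the start sites, the 250 bases before the RefSeq start site (build GRCm38.p6) were read. This was done for 5 of the 7 genes, those with a promoter entry, namely Apln, Adm, Calcrl, Ramp1 and Ramp3. The windows were searched on both strands for the core letters of a HIF binding element, written as ACGTG or GCGTG, which do not overlap each other in these windows. The windows of Adm and Ramp3 held 2 matches each, and those of Apln, Calcrl and Ramp1 held 0. DNA outside the windows was not read, so 0 matches does not mean that a gene lacks such an element. Of 32851 promoter windows of the same length over all genes, 12679 (38.6%) held at least 1 match, so a match is common. The 2 windows with matches and that of the other ligand are shown 5′ to 3′ on the gene's own strand, with matched letters in capitals. CACGC is GCGTG read on the opposite strand.
Adm (chr7:110627407-110627656, plus strand): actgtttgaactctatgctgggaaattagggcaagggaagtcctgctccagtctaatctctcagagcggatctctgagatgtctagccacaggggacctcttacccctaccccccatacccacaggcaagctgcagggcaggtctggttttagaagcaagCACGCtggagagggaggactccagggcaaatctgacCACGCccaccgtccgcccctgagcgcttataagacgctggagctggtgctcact
Ramp3 (chr11:6658283-6658532, plus strand): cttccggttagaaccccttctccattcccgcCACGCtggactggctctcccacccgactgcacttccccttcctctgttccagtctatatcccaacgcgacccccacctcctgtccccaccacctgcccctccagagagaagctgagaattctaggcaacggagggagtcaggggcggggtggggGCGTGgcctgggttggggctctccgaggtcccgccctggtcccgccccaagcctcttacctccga
Apln (chrX:48034854-48035103, minus strand): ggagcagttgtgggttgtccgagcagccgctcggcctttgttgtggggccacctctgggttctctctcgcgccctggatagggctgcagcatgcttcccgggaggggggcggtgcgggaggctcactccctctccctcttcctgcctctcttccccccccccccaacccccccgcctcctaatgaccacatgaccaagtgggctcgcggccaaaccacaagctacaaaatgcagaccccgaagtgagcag
The matches in Adm begin 90 and 54 bases before the start site, and those in Ramp3 begin 219 and 65 bases before it. These letters are a description of the windows. Binding was not measured here.

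The first comparison addresses Egln1 deletion by Tie2Cre. In it both apelin genes were lower, Calcrl was higher and the other adrenomedullin genes were modestly higher. Aplnr was 4.81-fold lower and Apln 3.12-fold lower in the Egln1_Tie2Cre pool than in Egln1_floxed, while Calcrl was 3.19-fold higher. Called apart here means at least 2-fold on the ratio of FPKM + 1, and these were the 3 of 7 genes called, against 7.77% of all 11978 genes tested (3.93% higher and 3.84% lower). Adm, Ramp1, Ramp2 and Ramp3 had log2 ratios of 0.24, 0.31, 0.44 and 0.40, inside the middle 90% of all genes (-0.83 to 0.85). The median log2 ratio of the 7 was 0.31 against 0.02 for all genes. Since the genes were chosen with this contrast known, nothing is read from these. Among the 8967 protein-coding genes without a copy, 2.78% were called. In whole tissue, fewer cells of a type and less RNA per cell cannot be told apart.

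**Figure D1:**
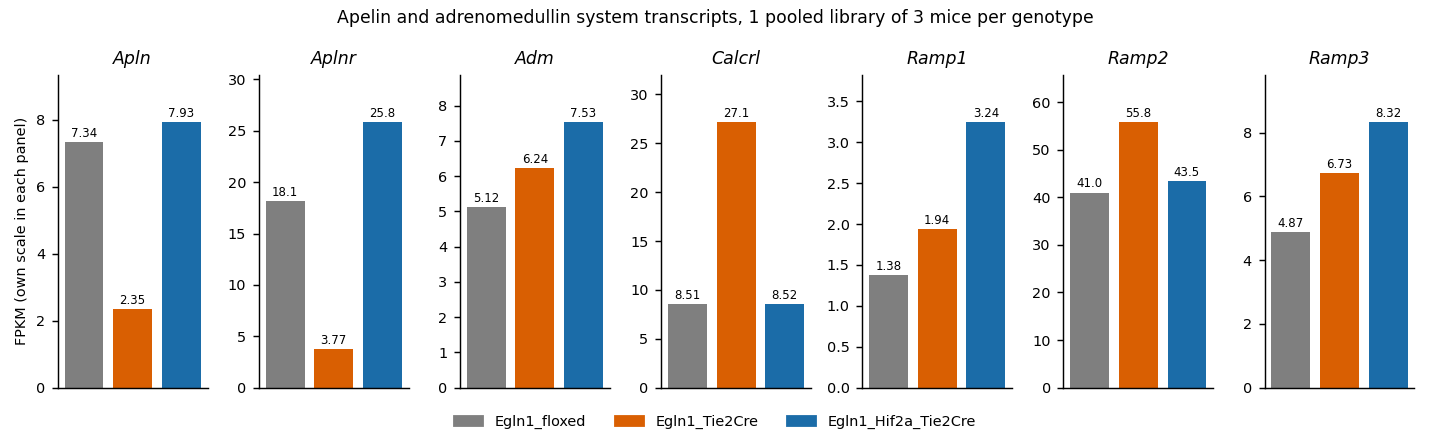
FPKM of the 7 genes in each of the 3 pools (bars, 1 library each, each panel with its own scale from 0). The Egln1_Tie2Cre bar is the lowest of its panel for Apln and Aplnr and the highest for Calcrl and Ramp2, and the bars of Adm, Ramp1 and Ramp3 are lowest in Egln1_floxed and highest in Egln1_Hif2a_Tie2Cre.

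Of the ligands, Apln (GRCm38 chromosome X, 48025146 to 48034853, minus strand) was at 7.34 FPKM in Egln1_floxed, 2.35 in Egln1_Tie2Cre and 7.93 in the pool labelled Egln1_Hif2a_Tie2Cre. The Egln1_Tie2Cre pool was thus the low one, and the other two lay within 1.08-fold of each other. Apln sits on the X chromosome and the sexes were not stated. Xist, the RNA made from the inactive X of females, was at 16.5, 18.9 and 30.2 FPKM in the same order, and the Y chromosome gene Eif2s3y at 19.2, 27.0 and 17.3. The other 3 Y genes listed, Ddx3y (11.4, 8.73 and 5.59), Uty (3.605, 2.33 and 1.31) and Kdm5d (1.86, 1.31 and 0.610), were highest in Egln1_floxed. The part of sex in the Apln values was not tested. Adm (chromosome 7, 110627661 to 110629820, plus strand) was at 5.12, 6.24 and 7.53 FPKM, a narrower range in which Egln1_floxed was lowest and the pool labelled Egln1_Hif2a_Tie2Cre highest. Adm was 1.22-fold above control in Egln1_Tie2Cre and 1.47-fold above it in the pool labelled Egln1_Hif2a_Tie2Cre. The annotation places an antisense gene, Gm28863, over the whole of Adm, and it is not given whether the counting used strand, so Adm is uncertain in that respect. In the Egln1_Tie2Cre pool Apln thus stood below the control and Adm only slightly above it. Of the other genes, 27.9% lay at least as far above the control as Adm. Its log2 ratio of 0.24 became 0.05 when scaled to endothelial markers.

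Of the receptors, Aplnr (chromosome 2, 85136225 to 85139923, plus strand) was at 18.1 FPKM in Egln1_floxed, 3.77 in Egln1_Tie2Cre and 25.8 in the pool labelled Egln1_Hif2a_Tie2Cre. Its longest annotated transcript is 1 exon of 3699 bases. Calcrl, on the same chromosome (84330626 to 84425411, minus strand), has 16 exons in its longest transcript and was at 8.51, 27.1 and 8.52 FPKM. The 2 receptor genes thus differed in opposite directions: the Egln1_Tie2Cre pool was the low one for Aplnr and the high one for Calcrl. Aplnr exceeded Calcrl 2.13-fold in Egln1_floxed and 3.03-fold in the pool labelled Egln1_Hif2a_Tie2Cre, whereas Calcrl exceeded Aplnr 7.20-fold in Egln1_Tie2Cre. In the authors' deposited table the q-value of Aplnr was 0.3411 for Egln1_Tie2Cre against Egln1_floxed and 0.0555 for the pool labelled Egln1_Hif2a_Tie2Cre against Egln1_Tie2Cre. The authors' deposited tables gave a q-value of 0.9996 for every other comparison of the 7 genes, and their q-values compare 2 libraries and not 2 genotypes.

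The receptor partners differed less between pools. Ramp2 (chromosome 11, 101246028 to 101259546, plus strand) was by far the most abundant, at 41.0, 55.8 and 43.5 FPKM in the order Egln1_floxed, Egln1_Tie2Cre and the pool labelled Egln1_Hif2a_Tie2Cre. Its highest value was in Egln1_Tie2Cre, as for Calcrl, but at 1.36-fold over control against 3.19-fold. Its annotated span overlaps Vps25, an endosomal sorting gene on the same strand that was at 65.0, 132.6 and 65.6 FPKM, by 5840 bases, so reads of one may be counted for the other and the Ramp2 value is uncertain. Ramp3 (chromosome 11, 6658521 to 6677475, plus strand) was at 4.87, 6.73 and 8.32 FPKM, and the annotation places the pseudogene Gm11978 on the opposite strand within it. Ramp1 (chromosome 1, 91179822 to 91225196, plus strand) was the least abundant of the 7 in every pool, at 1.38, 1.94 and 3.24 FPKM. Ramp1 and Ramp3 shared the order seen for Adm, lowest in Egln1_floxed and highest in the pool labelled Egln1_Hif2a_Tie2Cre.

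The order of the levels shows where Calcrl and Aplnr changed places. In Egln1_floxed it ran Ramp2, Aplnr, Calcrl, Apln, Adm, Ramp3 and Ramp1 from high to low. In Egln1_Tie2Cre it ran Ramp2, Calcrl, Ramp3, Adm, Aplnr, Apln and Ramp1, so that both apelin genes were below Adm and Ramp3. In the pool labelled Egln1_Hif2a_Tie2Cre it ran Ramp2, Aplnr, Calcrl, Ramp3, Apln, Adm and Ramp1. The middle genes lay close there, at 8.52 FPKM for Calcrl, 8.32 for Ramp3, 7.93 for Apln and 7.53 for Adm, and the order of such neighbours has no replicate check.

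Because RAMP proteins share one Calcrl partner, the composition of their transcripts was computed within each pool. Ramp2 made up 86.8% of the summed Ramp FPKM in Egln1_floxed, 86.6% in Egln1_Tie2Cre and 79.0% in the pool labelled Egln1_Hif2a_Tie2Cre. Ramp3 made up 10.3%, 10.4% and 15.1%, and Ramp1 2.92%, 3.01% and 5.90%. The shares were close in the first 2 pools, and that of Ramp2 was lower in the last. These shares, and the ratio to Calcrl that follows, rest mostly on Ramp2, which is uncertain through its overlap with Vps25, at 132.6 FPKM in Egln1_Tie2Cre against 65.0 in Egln1_floxed. What differed in Egln1_Tie2Cre was the amount of Calcrl relative to its partners: there were 5.55 units of summed Ramp FPKM per unit of Calcrl in Egln1_floxed, 2.37 in Egln1_Tie2Cre and 6.45 in the pool labelled Egln1_Hif2a_Tie2Cre. The summed Ramp level was thus above that of Calcrl in every pool. The ratio of Adm to Calcrl FPKM was 0.601, 0.230 and 0.883 and that of Apln to Aplnr 0.404, 0.624 and 0.307, so each ligand gene was below its receptor gene in all 3 pools. The counting error of these shares cannot be given, since FPKM keeps no counts.

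**Figure D2:**
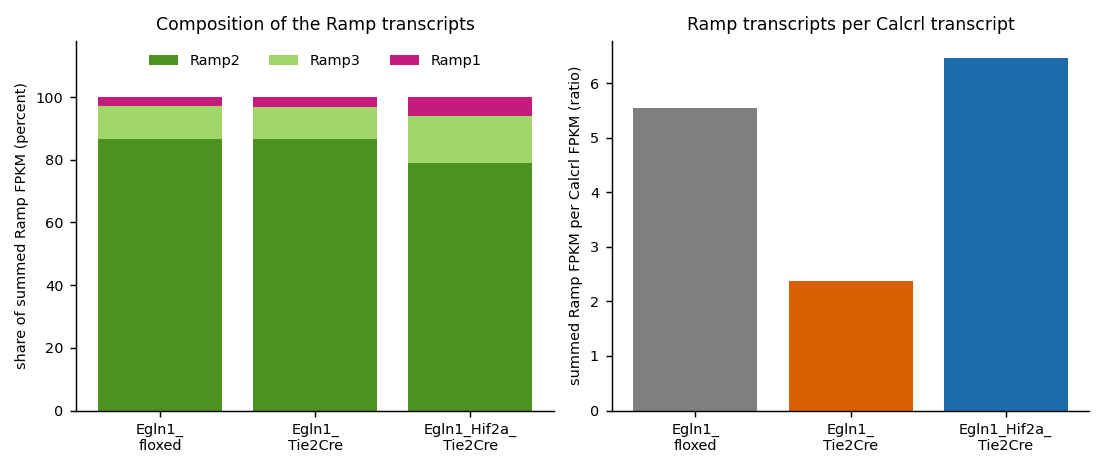
Left, the share of Ramp2, Ramp3 and Ramp1 in their summed FPKM (percent) in each pool. Right, summed Ramp FPKM divided by Calcrl FPKM. The left bars of Egln1_floxed and Egln1_Tie2Cre look alike (Ramp2 at 86.8% and 86.6%), while the right bar of Egln1_Tie2Cre is the shortest, at 2.37.

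The second comparison asks how the pool labelled with both deletions differs from Egln1_Tie2Cre. The same 3 genes were the only ones of the 7 called, against 8.38% of 11999 genes tested (4.31% higher and 4.08% lower, and 3.25% of 8952 coding genes without a copy). The median log2 ratio of the 7 was 0.27 against -0.02 for all genes. Aplnr was 6.85-fold higher and Apln 3.37-fold higher in the pool labelled Egln1_Hif2a_Tie2Cre, and Calcrl was 3.18-fold lower. The other genes differed by 1.21-fold (Adm, higher), 1.24-fold (Ramp3, higher), 1.28-fold (Ramp2, lower) and 1.68-fold (Ramp1, higher). Both this comparison and the first use the Egln1_Tie2Cre pool, so the 2 sets of ratios are not independent.

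The third comparison sets the pool labelled Egln1_Hif2a_Tie2Cre against Egln1_floxed and does not involve the Egln1_Tie2Cre pool. Here 0 of the 7 genes were called at 2-fold, against 0.976% of 11888 genes (0.538% higher and 0.437% lower, and 0.678% of 9000 coding genes without a copy), and 2 were at least 1.5-fold apart on the same scale, against 7.7%. Those 2 were Ramp1, at 2.36-fold on the plain FPKM ratio, and Ramp3, at 1.71-fold. Ramp3 was below 1.5-fold under 3 other scalings, with a log2 ratio of 0.51 after rescaling, 0.43 after centring by exon number and transcript length and 0.42 per unit of endothelial markers. Adm and Aplnr were 1.47-fold and 1.42-fold higher. Apln (1.08-fold), Ramp2 (1.06-fold) and Calcrl (1.001-fold) stood at or near the control value. All 7 ratios were at or above 1, and their median log2 ratio was 0.48 against 0.00 for all genes. The direction of Apln, Ramp2 and Calcrl depended on the scaling: per unit of endothelial marker expression their log2 ratios were -0.15, -0.19 and -0.25. The middle 90% of all log2 ratios in this comparison ran from -0.50 to 0.56, which holds Aplnr (0.49) and Adm (0.48) but not Ramp3 (0.67) or Ramp1 (0.84). In the first comparison that range was wider, from -0.83 to 0.85.

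**Figure D3:**
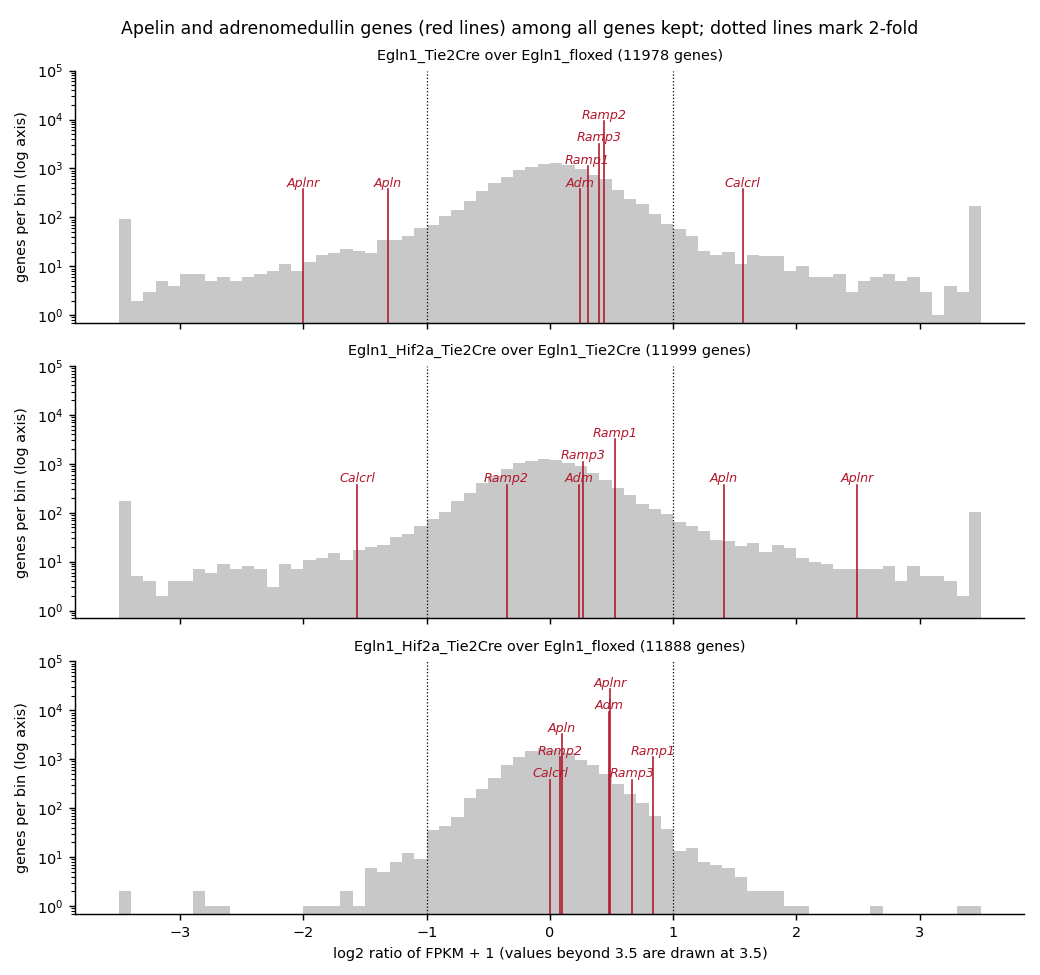
Histograms of the log2 ratio of FPKM + 1 over all genes kept in each comparison (log count axis), with the 7 genes as red lines and 2-fold as dotted lines. Apln, Aplnr and Calcrl lie outside the dotted lines in the upper 2 panels, and all 7 lie inside them in the lowest.

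Since the receptors are largely endothelial, their levels were set beside markers of that cell type. Of 14 endothelial markers 0 were called apart between Egln1_Tie2Cre and Egln1_floxed in either direction, beside 7.77% of all genes tested. A list this short can give 0 calls at that share. The summed level of the 14 was 569 FPKM in Egln1_floxed, 665 in Egln1_Tie2Cre and 691 in the pool labelled Egln1_Hif2a_Tie2Cre. Per 1000 FPKM of these markers, Aplnr was at 31.9, 5.67 and 37.4 and Apln at 12.9, 3.54 and 11.5. Calcrl was at 14.96, 40.8 and 12.3 per 1000 on the same scale. The Egln1_Tie2Cre pool was the lowest for Aplnr and Apln and the highest for Calcrl on this scale too. Ramp2 was at 72.0, 83.8 and 62.9 per 1000.

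Markers of endothelial subtypes did not all follow that total. Of all genes tested, 3.84% were called lower and 3.93% higher in the first comparison. Of 6 capillary markers, 2 were at least 2-fold lower in Egln1_Tie2Cre than in Egln1_floxed and 0 were higher, beside Aplnr and Apln. They were Aqp1, a water channel of capillaries, at 179 FPKM in Egln1_floxed, 49.4 in Egln1_Tie2Cre and 196 in the pool labelled Egln1_Hif2a_Tie2Cre, and Car4, a carbonic anhydrase on their surface, at 16.6, 5.28 and 22.1. The summed level of the 6 capillary markers, mostly the fatty acid handling genes Fabp4 and Cd36, went the other way, at 1953, 2340 and 2177 FPKM. Among the venous markers, 1 of 3 was called, Vwf, the von Willebrand clotting factor, at 20.4, 89.2 and 17.8 FPKM, highest in Egln1_Tie2Cre, as was Calcrl. Of 6 arterial markers 1 was called, Hey1, a transcription factor induced by Notch, at 5.54, 12.3 and 7.03. The median log2 ratio of the arterial list was -0.07 in the first comparison. Sox17 was higher in Egln1_Tie2Cre than in Egln1_floxed (9.49 against 6.58 FPKM), and Gja4 was near level (7.37 against 7.38). Dll4 (5.52 against 7.70), Efnb2 (5.86 against 6.85) and Gja5 (1.52 against 1.76) were lower. Summed levels were 42.8, 119 and 39.9 FPKM for the venous and 35.8, 42.1 and 43.3 for the arterial list. The venous sum differed mostly through Vwf. Ephb4 was at 18.4 FPKM in Egln1_floxed and 25.3 in Egln1_Tie2Cre, and Nr2f2 at 3.98 and 4.85.

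Calcrl and its partners are also made in lymphatic vessels and mural cells. In the first comparison 0 of 4 lymphatic markers kept were called, with Lyve1, a hyaluronan receptor, at 8.98, 8.60 and 11.7 FPKM and Prox1, the lymphatic master regulator, at 9.33, 6.26 and 8.10. Of 9 mural markers 0 were called in any comparison, and their summed level was 361, 327 and 379 FPKM. Of 3 endocardial markers 0 were called in any comparison, with summed levels of 14.9, 20.5 and 17.7 FPKM, and of 6 fibroblast markers likewise 0, at 321, 339 and 415. Macrophage markers gave 0 calls of 7 in the first comparison and summed to 139, 102 and 181 FPKM. C1qa, a complement subunit of macrophages, was the 1 called in the second comparison, at 28.5 FPKM in Egln1_Tie2Cre and 60.3 in the pool labelled Egln1_Hif2a_Tie2Cre. Of all genes tested, 7.77%, 8.38% and 0.976% were called in the 3 comparisons. Lists this short can give 0 calls at such shares, so 0 does not show a cell type to be unchanged. The part of shifts between these cell types in the values of Aplnr, Apln and Calcrl was not tested.

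**Figure D4:**
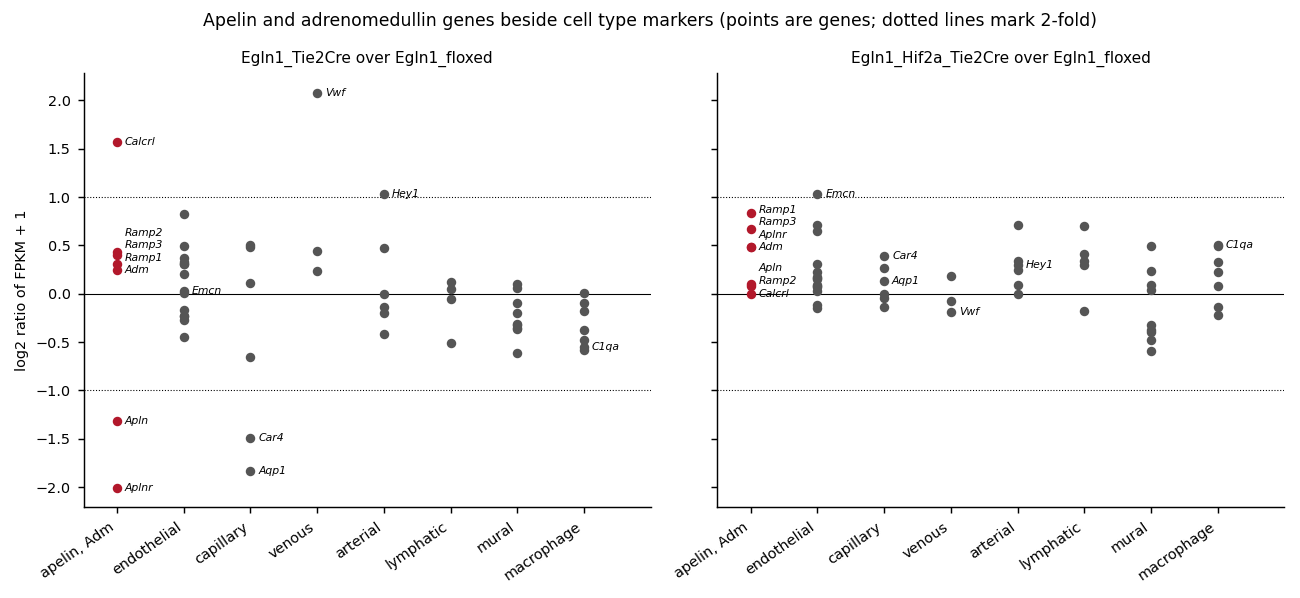
Log2 ratio of FPKM + 1 for the apelin and adrenomedullin genes (red) and for marker genes of 7 cell types (grey), each point 1 gene, against Egln1_floxed. In the left panel the endothelial markers lie inside the dotted 2-fold lines while Aplnr, Apln, Car4 and Aqp1 lie below them and Calcrl, Vwf and Hey1 above. In the right panel Emcn, an endothelial sialomucin, is the only labelled gene beyond them.

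Enzymes that make and clear the peptides were followed next, from a list of 10 genes of which 9 were in the tables and 8 passed the filter. In the first comparison 1 was called higher and 1 lower, beside 3.93% and 3.84% of all genes. The list's median log2 ratio was 0.24 against 0.02 for all genes. Pam, the enzyme that adds the terminal amide adrenomedullin needs for activity, was at 189.5 FPKM in Egln1_floxed, 382 in Egln1_Tie2Cre and 156 in the pool labelled Egln1_Hif2a_Tie2Cre. Mme, the peptidase neprilysin, which degrades vasoactive peptides including apelin and adrenomedullin, was at 2.10, 0.466 and 1.12. Ace, the angiotensin-converting enzyme, was at 16.5, 33.0 and 15.3, below the 2-fold line on FPKM + 1 in the first comparison and past it in the second. Pam and Ace thus had their highest value in Egln1_Tie2Cre, as did Calcrl. Furin, the convertase that cuts the apelin precursor, was at 27.7, 27.9 and 20.6. In the third comparison 0 of the 8 were called, beside 0.976% of all genes.

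Of 9 related ligand and receptor genes, 3 were in the tables, and 0 of them were called in any comparison. The shares of all genes called were 7.77%, 8.38% and 0.976%. Ackr3, a scavenger receptor that also takes up adrenomedullin, was at 26.3 FPKM in Egln1_floxed, 19.2 in Egln1_Tie2Cre and 30.1 in the pool labelled Egln1_Hif2a_Tie2Cre. Crcp, an intracellular component of calcitonin gene-related peptide receptors, was at 8.28, 7.33 and 8.13. The other apelin receptor ligand gene Apela, the calcitonin gene-related peptide genes Calca and Calcb, and Adm2, Calcr and Iapp are not analysed here.

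Of 30 receptor signalling genes in the tables (31 rows, since Hdac4 has 2 identifiers), 1 was called higher and 0 lower in the first comparison, beside 3.93% and 3.84% of all genes. Grk5, a kinase that desensitises G protein-coupled receptors, was at 7.57 FPKM in Egln1_floxed, 17.9 in Egln1_Tie2Cre and 10.6 in the pool labelled Egln1_Hif2a_Tie2Cre, and it has a copy by the search used here and is uncertain. In the second comparison 4.31% of all genes were called higher and 4.08% lower. Of this list 0 were higher and 2 lower there: Arrb1, an arrestin that ends receptor signalling, at 19.4 and 7.25 FPKM, and Akt1, a survival kinase, at 133 and 63.8. Their Egln1_floxed values were 10.3 and 87.1. In the third comparison the 1 called was Klf4, a flow-responsive endothelial transcription factor, at 21.5 against 9.78 FPKM, which also has a copy. Of all genes, 0.976% were called there. The median log2 ratio of the list was 0.08, -0.10 and -0.07 in the 3 comparisons.

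**Figure D5:**
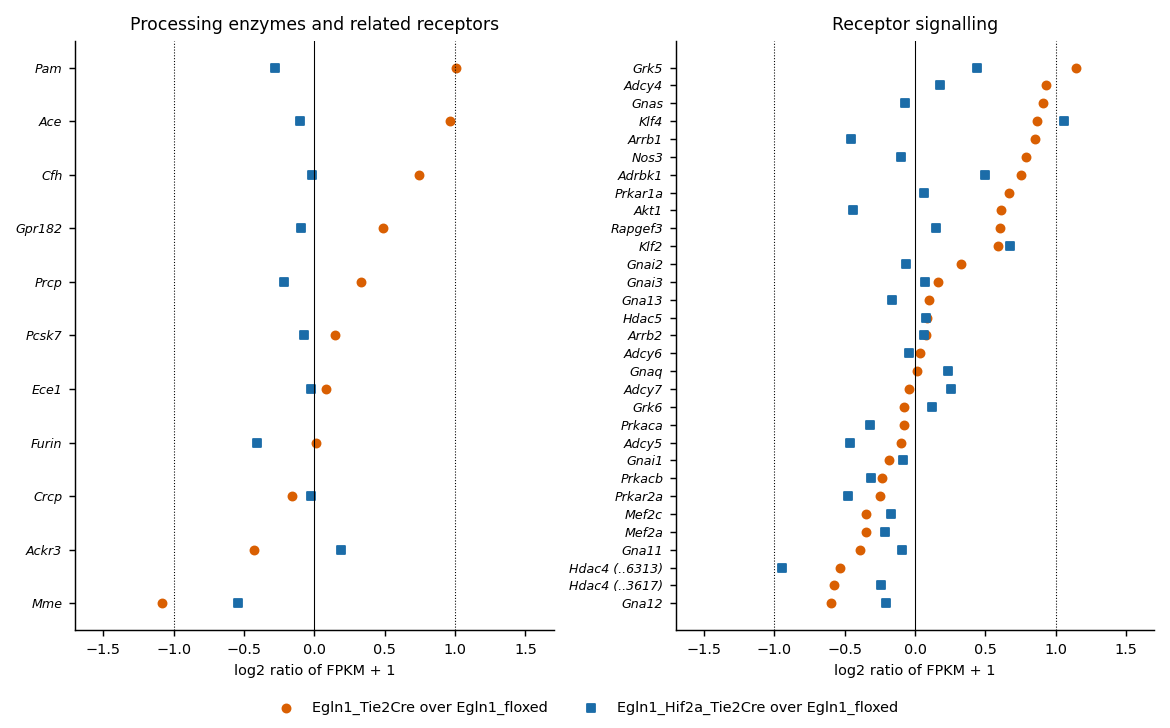
Log2 ratio of FPKM + 1 over Egln1_floxed for processing enzymes and related receptors (left) and receptor signalling genes (right), with circles for Egln1_Tie2Cre and squares for Egln1_Hif2a_Tie2Cre and dotted lines at 2-fold. Pam, Mme and Grk5 lie beyond a dotted line for Egln1_Tie2Cre, and Klf4 is the only square beyond one.

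Other genes known as HIF targets were read beside the 2 ligands, from a list of 24 of which 22 were tested. In the first comparison 5 were called higher, among them Slc16a3, Ankrd37, Ndrg1 and Bhlhe40, and 1 lower, Higd1a. Of all genes tested, 3.93% were called higher and 3.84% lower. In the second comparison 3 were called higher and 1 lower, beside 4.31% and 4.08% of all genes. Ankrd37, a small ankyrin repeat protein, was at 7.34 FPKM in Egln1_floxed, 19.8 in Egln1_Tie2Cre and 9.39 in the pool labelled Egln1_Hif2a_Tie2Cre, highest where Calcrl was highest. Bhlhe40, a circadian repressor, was at 18.3, 38.6 and 22.5. Higd1a, a mitochondrial protein, was at 60.1, 19.6 and 85.3, the order of Aplnr, but it has copies and is uncertain, as does Ndrg1. In the third comparison 4 were called higher and 0 lower, beside 0.538% and 0.437% of all genes. Those 4 were Slc16a3, a lactate exporter, Egln3, a HIF hydroxylase, P4ha1, a collagen hydroxylase, and Vegfa, the endothelial growth factor. In the same order of pools, Slc16a3 was at 0.875, 7.43 and 18.7 FPKM, P4ha1 at 16.3, 23.2 and 36.3 and Vegfa at 142, 220 and 311. These rose in the order of Adm, whereas Egln3, at 25.2, 19.9 and 65.3, had the order of Apln. Adm was below 2-fold in every comparison, and Apln was lower in the first and higher in the second.

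Genes with the most similar pattern were sought by the distance between pairs of log2 ratios over Egln1_floxed, among 7448 genes with a mean of at least 5 FPKM (7449 for Ramp1). Only 3 pools define each pattern, so likeness is a description. Nearest to Aplnr were Dnajc19 (distance 0.11), Dynlt1b (0.12) and Ndufa12 (0.13), and nearest to Apln were Hdac1 (0.049), Fbl (0.076) and Hnrnpf (0.084). All 6 of these have a near-identical copy elsewhere in the annotation. Of 2207 genes in that class, 328 were at least 2-fold lower and 59 higher in Egln1_Tie2Cre than in Egln1_floxed (class median log2 ratio -0.11). Apln and Aplnr themselves have none by the same search, which read coding sequence only and needed at least 200 matching bases. The nearest to Calcrl were farther away: Fgfr3 (0.21), a fibroblast growth factor receptor, Rassf1 (0.28), a microtubule-associated tumour suppressor, and AY036118 (0.29). Fgfr3 was at 3.89 FPKM in Egln1_floxed, 11.8 in Egln1_Tie2Cre and 4.29 in the pool labelled Egln1_Hif2a_Tie2Cre, and it has no copy by that search. For Ramp1 the nearest were AI413582 (0.021), the nuclear noncoding RNA Malat1 (0.031) and Cmtm8 (0.042), and for Ramp3 Tm6sf1 (0.032), Grcc10 (0.034) and Txndc17 (0.035).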

How the data were processed

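Left ventricular RNA of 3 pools was compared, 1 library per genotype. The authors' processing used TopHat2 and Cuffdiff, per the submitters' processing notes. Versions, build, annotation and strandedness: not given in the sources used here. The deposited values are FPKM, per the file headers, so depth is unknown. The authors also deposited a fold ratio and a q-value for each pair of libraries, which are quoted only as theirs. Columns were assigned to libraries by the sample titles in the table names, and the FPKM of a library agreed within a relative difference of 1e-09 in its 2 tables for 14368 of 14369, 14489 of 14489 and 14367 of 14367 shared genes.

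Ratios were computed as log2(FPKM + 1) on the whole table of each pair (Python 3.11.15, pandas 2.3.3), over genes with a mean of at least 1 FPKM, and called at 2-fold. A pseudocount of 1 understates the ratio of low genes, and folds printed beside FPKM are plain ratios. The counting code was run on simulated data without noise, which checks its arithmetic only and not the calls between single pools. Copies were searched with blastn 2.17.0 (at least 200 bases at 90% identity) between the longest coding sequences and transcripts of GENCODE M21 (GRCm38), which also gave coordinates. The 7 genes, the lists and the rule for named genes were chosen with earlier results of these data known. That rule names the 7 genes, list members called in any comparison or else the 2 most abundant, and the 3 genes nearest to each of the 7 that is at least 1.5-fold apart. Some genes that the rule covers are not reported here. The promoter windows, Furin, Fabp4, Cd36, Sln, Ddx3y, Uty, Kdm5d and the overlapping gene Vps25 were named outside it, after values were seen. The same holds for Nr2f2, Ephb4, Gja4, Gja5, Efnb2, Sox17 and Dll4. The 8 alternatives listed beforehand and 2 added after seeing the data are reported below.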

Additional observations from a re-analysis of the deposited data

How the results depend on the processing

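Apln, Aplnr and Calcrl, as the genes called in the first 2 comparisons, gave 3 calls under every alternative run, except that Apln was not tested in the first (2 calls) at a mean of at least 5 FPKM because its own mean is below that. Over the alternatives the log2 ratio in the first comparison ran from -2.24 to -1.97 for Aplnr, from -1.60 to -1.18 for Apln and from 1.35 to 1.66 for Calcrl. In the third comparison, Egln1_Hif2a_Tie2Cre over Egln1_floxed, the count of 0 became 1 with a pseudocount of 0.1 (Ramp1) and 2 at 1.5-fold. Of 164 alternative values of the 21 ratios, 157 kept their sign. The 7 others were all of Apln, Ramp2 or Calcrl in the third comparison. Some settings only change which genes are kept: no filter, a mean of at least 5 FPKM, and coding genes without a copy. They cannot alter a gene's own ratio, so their values among the 164 had to keep their sign. Calls of the genes they keep were fixed in the same way. Taking genes from any table reused the values of the 7 genes, so their calls were fixed too. Genes called at 2-fold must also stay called at 1.5-fold. The number of all genes called in the 3 comparisons, 931, 1006 and 116, became 2179, 2317 and 915 at 1.5-fold, 249, 291 and 61 among coding genes without a copy, and 247, 278 and 61 after centring these by exon number and transcript length. In the third comparison it also became 306 with a pseudocount of 0.1 and 65 at a mean of at least 5 FPKM. A lower threshold raises these counts by construction. Of the 931 calls of the first comparison, coding genes with a copy gave 59 higher and 328 lower and pseudogenes 192 and 16, and the cause of the other differences was not tested. Scaling to endothelial markers moved the split of calls from 471 higher and 460 lower to 367 and 594 in the first comparison and from 64 and 52 to 32 and 133 in the third. Rescaling without mitochondrial, ribosomal protein and pseudogene symbols gave 402 and 531, and 39 and 98, in the same 2 comparisons. Shares within a pool do not depend on scaling. No paired analysis was possible because each genotype has 1 library. No replicate could be left out, and depth is unknown.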

Other observations

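Sprouting-capillary markers, the cell state in which Apln is classically described, were low in all pools except for Plvap. Esm1, a secreted proteoglycan of tip cells, was at 0.963 FPKM in Egln1_floxed, 0.388 in Egln1_Tie2Cre and 2.71 in the pool labelled Egln1_Hif2a_Tie2Cre, the same order of pools as Apln and Aplnr. It was called between the last 2 pools and was below 2-fold in the third comparison (log2 ratio 0.92), while its mean was under 1 FPKM in the first. Angpt2, a ligand released by activated endothelium, was at 0.861, 2.05 and 2.03 in that order of pools, and Kcne3, a channel subunit, at 0.217, 0.248 and 0.997. Plvap, a protein of endothelial diaphragms, was at 4.44, 3.34 and 6.05, also the order of Apln and Aplnr. The 4 markers summed to 6.48, 6.03 and 11.8 FPKM. Angpt2, Kcne3 and Plvap were named after their values were seen, and none of these values has a replicate check.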
